A study of Mus musculus with 8 samples.

Results

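The ErbB receptors and their ligands were followed in the atrioventricular canal of mouse hearts, with and without deletion of the transcription factor gene Gata4 in the endothelium and the cushion cells derived from it. The set comprised 7 genes of 18194 named on the array: the receptor genes Egfr, Erbb2, Erbb3 and Erbb4, the ligand genes Nrg1 and Hbegf, and the feedback inhibitor gene Errfi1. Every probe set annotated with one of these symbols alone was taken, which gave 16 probe sets, by gene name and not by expression value. A probe set is a group of short oligonucleotides on the array that together report 1 transcript.

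Tissue came from 4 control and 4 mutant samples, each a pool of 10 dissected canals. Control mice were Gata4 flox/flox, with both alleles flanked by recombination sites and no Cre named. Mutant mice were Gata4 flox/flox; T2Cre+, where T2Cre is a Cre transgene driven by the promoter of Tie2, an endothelial receptor gene. All were on a mixed C57BL6/129 background, and the labels used here give no age for the embryos. Canal muscle was not targeted, so each pool mixed targeted and untargeted cells, and Cre is named for the mutants alone. The labels do not say whether the pools came from separate litters, so p-values measure the spread between these pools.

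ErbB receptors are tyrosine kinases that act in pairs. ErbB3 binds neuregulins but has little kinase activity of its own and signals through partners, above all ErbB2, which has no known ligand. In the heart, neuregulin 1 comes from the endocardium, ErbB3 is needed in the cushion mesenchyme from which valves form, and ErbB4 acts with ErbB2 in the myocardium. The EGF receptor and its ligand HB-EGF restrain the growth of valve mesenchyme. The Errfi1 protein, also called Mig-6, binds active ErbB kinases and shuts them down.

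The arrays were not equally clean. The authors' scaling set the mean signal of every array to 715, but the background limit, taken from 27 bacterial probe sets with no RNA normally added (their 90th percentile), was 316 and 270 on controls 2 and 3. The other 2 controls had limits of 97.5 and 51.1, and the mutants had 21.4 to 65.4. According to the submitters, noise led them to drop 2 controls, which they do not name; all 4 controls are in the table used here. The 3 prime to 5 prime log2 ratio of Actb, a sign of RNA integrity, ran from 1.31 to 1.51 in the mutants and from 1.13 to 1.40 in the controls. That of Gapdh leaned the other way, at 0.31 to 0.42 in the mutants and 0.36 to 0.48 in the controls. Gata4 itself, on its brighter probe set, changed by -0.15 (SE 0.11, limma adjusted p = 0.585). Its dimmer probe set, above background on 2 control and 4 mutant arrays, changed by 0.98 (SE 0.46, adjusted p = 0.388), and a whole canal does not check a deletion confined to some of its cells.

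Erbb3 was the one member whose change passed the test. Its signal was 2.21 times as high in the control pools as in the mutant pools, with no overlap, while the detected probe sets of Erbb2, Hbegf and Errfi1 overlapped between groups. Erbb4 was not above background on any array. On the linear scale the authors deposited, Erbb3 had signals of 1741, 1910, 1906 and 1824 across controls 1 to 4. It had 787, 833, 1089 and 637 across mutants 1 to 4. The highest mutant pool thus stayed well under the lowest control pool, and controls 2 and 3, with their raised background, read much like controls 1 and 4. Group means were 1845 ± 80.0 and 836 ± 188 (SD, n = 4 each), which differed by an exact two-sided permutation test (p = 0.0286, the smallest that 4 against 4 can give).

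**Figure D1:**
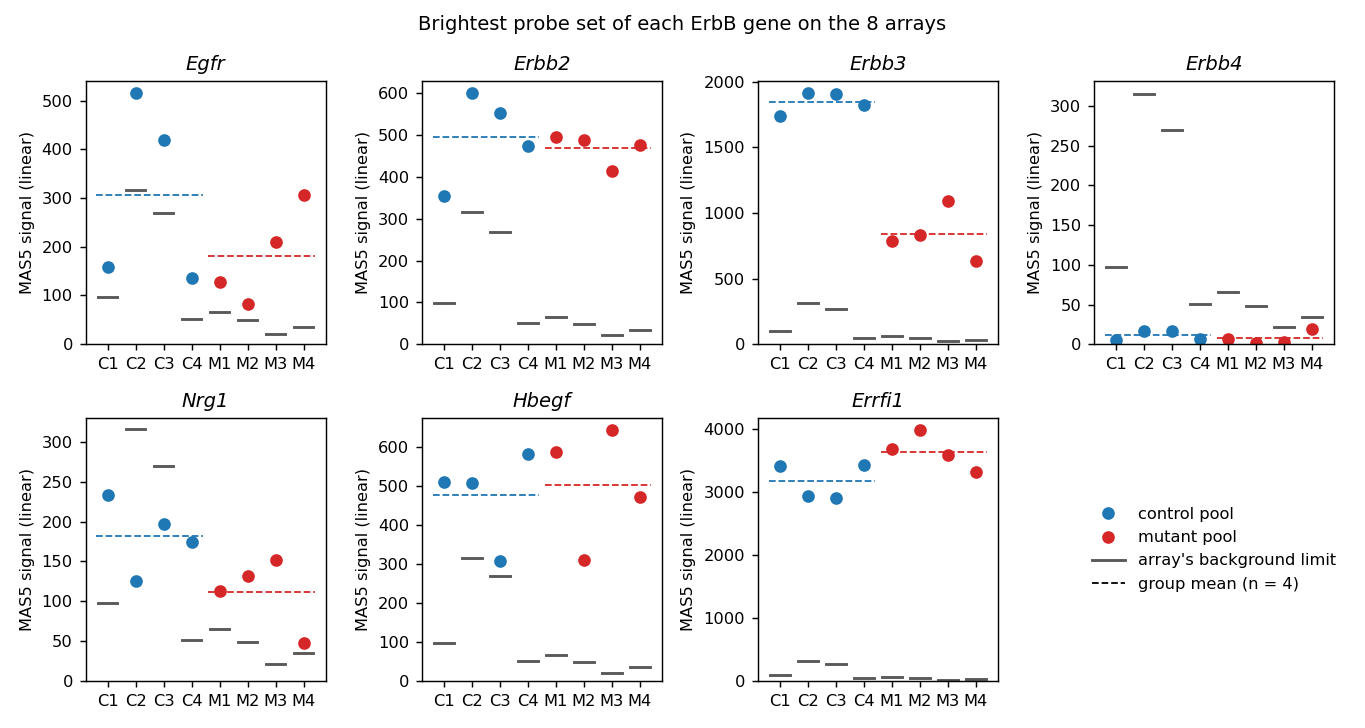
MAS5 signal (linear) of the brightest probe set of each of the 7 genes on controls C1 to C4 (blue) and mutants M1 to M4 (red), with the group mean as a dashed line (n = 4) and the background limit of each array as a grey bar. Each panel has its own axis from 0, and levels of different genes cannot be compared. Erbb3 separates the groups, at 1741 to 1910 against 637 to 1089, and Erbb4 lies under the grey bar on all 8 arrays.

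After quantile normalisation of log2(signal + 16), the same Erbb3 probe set read 10.78, 11.12, 11.06 and 10.77 across controls 1 to 4 and 9.67, 9.86, 10.02 and 9.38 across mutants 1 to 4. The gap between the lowest control and the highest mutant was 0.75. In limma, with p-values adjusted by Benjamini-Hochberg over all 27022 tested probe sets, Erbb3 fell by 1.12 (SE 0.17, 95% interval -1.48 to -0.76, adjusted p = 0.0183). As a fold, mutant over control, this is 0.460, with an interval of 0.359 to 0.590. It ranked sixth of all tested probe sets by p. This decrease was already known when the gene set was chosen, and is the base for what follows.

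Read against all tested probe sets, 1 of the 10 tested member probe sets was called lower, where 0.0185% of all were. None was called higher, where 0.0259% of all were. These shares rest on 5 and 7 probe sets, a number that grew to 263 lower and 1417 higher without control 1 and to 371 and 1291 without control 4. At an unadjusted limma p under 0.05, 2 of 10 were lower, Erbb3 and the Egfr probe set 1451530_at, beside 5.33% of all, and 0 of 10 higher, beside 7.31%. All mutant arrays lay below all control arrays for 1 of 10, against 3.19% of all, and above for 0 of 10, against 4.44%. The changes of 5 of the 10 were negative, beside 46.2% of all tested probe sets. The other 6 member probe sets were too dim for the test, which left out the dimmest 40% of the array. Of the 16, 7 were above background on all 8 arrays and 2 on none.

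**Figure D2:**
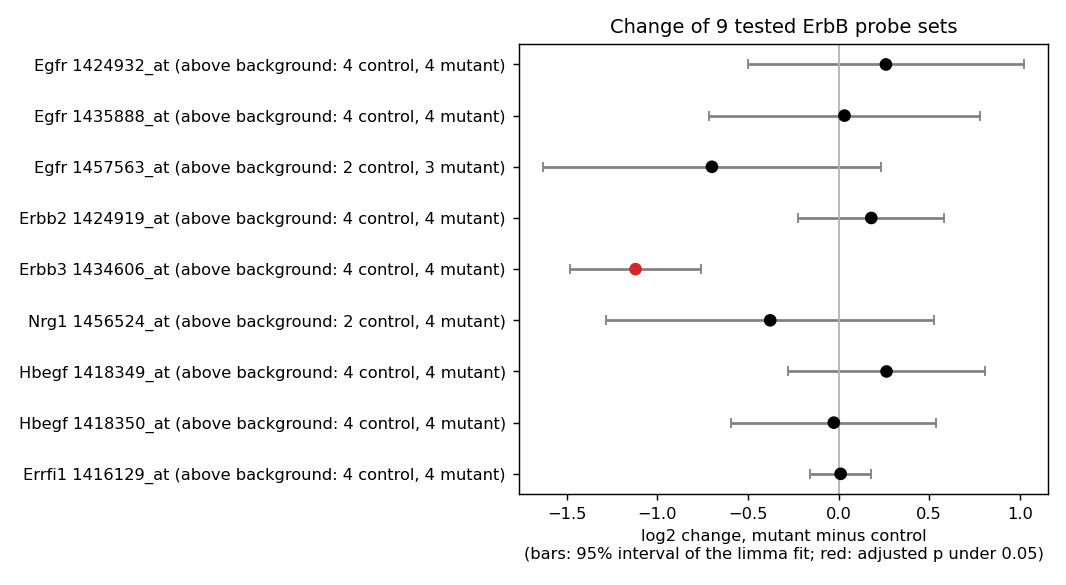
Log2 change, mutant minus control, of the 9 tested member probe sets that were above background on at least 2 arrays of each group, with the 95% interval of the limma fit as bars. The interval of Erbb3 (red, adjusted p = 0.0183) lies wholly below 0, that of Errfi1 is narrow around 0, and those of Nrg1 and Egfr are wide.

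Only one probe set of Erbb3 carried this result. The other, 1452482_at, exceeded background on 1 mutant array and on no control array, with signals of 7.53 to 68.1 in the controls and 2.05 to 72.5 in the mutants, so it neither repeats nor opposes the decrease. The Erbb3 call was lost without controls 2 and 3 (-1.12, adjusted p = 0.126), without mutant 1 (-1.09, adjusted p = 0.0551) and with the 3 prime to 5 prime ratio as a covariate (-1.09, adjusted p = 0.102), while its size hardly moved. Centring arrays on their medians instead moved the whole distribution up by 1.13 (its median change); Erbb3 then stood at 0.13, or -1.001 relative to the rest. The array medians were highest on controls 2 and 3.

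**Figure D3:**
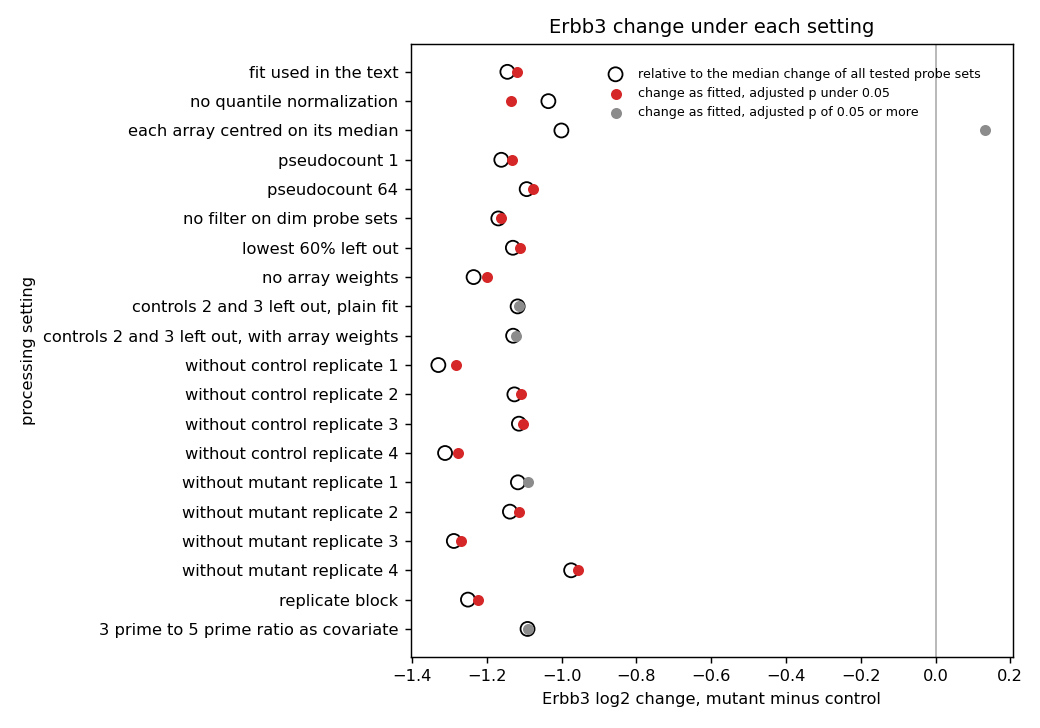
Erbb3 log2 change, mutant minus control, under each processing setting (vertical axis). Filled points are the change as fitted, red with an adjusted p under 0.05 and grey otherwise, and open circles give it after subtracting the median over the whole tested array. The open circles stay between -1.33 and -0.97, while the filled point moves to 0.13 when arrays are centred on their medians.

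Erbb2, the partner through which ErbB3 signals, did not share the decrease. Its single probe set had signals of 354, 601, 554 and 473 across controls 1 to 4, and 495, 488, 416 and 476 across mutants 1 to 4. The mutant pools lay within the range of the controls. Its log2 change was 0.18 (SE 0.19, 95% interval -0.22 to 0.58, adjusted p = 0.715), so a fall of the size seen for Erbb3 was outside the interval. Controls 2 and 3 read highest here, and their signals were 1.90 and 2.06 times the background limit of their arrays, against 3.63 to 19.4 times on the other arrays.

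The ratio of Erbb3 to Erbb2 was lower in the mutants, and a ratio taken within an array is free of that array's scaling. The Erbb3 signal divided by the Erbb2 signal was 4.92, 3.18, 3.44 and 3.86 across controls 1 to 4 and 1.59, 1.71, 2.62 and 1.34 across mutants 1 to 4. Its absolute size has no meaning, since the probes differ, but every mutant pool was below every control pool. The group means were 3.85 ± 0.77 and 1.81 ± 0.56 (SD, n = 4 each, exact permutation p = 0.0286). Against Errfi1 the ratio fell from 0.587 ± 0.0774 to 0.230 ± 0.0499 (SD, n = 4 each, exact permutation p = 0.0286). On this linear scale Errfi1 averaged 3170 in the controls and 3642 in the mutants, so part of the fall of its ratio comes from the reference. Erbb3 alone had already reached this smallest p, so these ratios restate its decrease and are not separate tests of it. With the mean of Egfr, Erbb2 and Erbb4 as the reference on the normalised log2 scale, Erbb3 changed by -1.27 (exact permutation p = 0.0286). That reference holds Erbb4, which was under background throughout, and the difference was -0.83 (exact permutation p = 0.0857) without quantile normalisation.

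Erbb4, the other neuregulin receptor of the heart, gave no usable level. Its single probe set had signals of 5.88, 16.9, 16.8 and 7.19 across controls 1 to 4, and 6.04, 1.29, 2.91 and 19.3 across mutants 1 to 4. These were 0.03 to 0.56 times the background limit of their arrays. A dim probe set shows only that the transcript was not detected by these oligonucleotides, and neither group can be called higher.

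Egfr was covered by 7 probe sets that did not tell 1 story. The brightest, 1424932_at, had signals of 158, 515, 419 and 135 across controls 1 to 4, and 127, 81.8, 210 and 307 across mutants 1 to 4. Both groups spread widely and overlapped, and the control values were high on the arrays with raised background. Its log2 change was 0.26 (SE 0.36, 95% interval -0.50 to 1.02, adjusted p = 0.787). That sign depends on how the arrays count: the plain group means were 7.93 in the controls and 7.71 in the mutants, and the unweighted change was -0.22. With weights it was also negative without control 1 (-0.22), control 4 (-0.16) or mutant 4 (-0.066). Without controls 2 and 3 the unweighted change was 0.24. The next, 1435888_at, was detected on every array and its change was 0.033 (SE 0.35, adjusted p = 0.979).

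The dimmer Egfr probe sets had negative changes without passing. Probe set 1457563_at changed by -0.70 (SE 0.44, adjusted p = 0.518), with 2 control and 3 mutant arrays above background. Probe sets 1432647_at and 1460420_a_at were left out of the test, and in a fit of all probe sets they changed by -0.55 (SE 0.58) and -0.44 (SE 0.55). Probe set 1451530_at was above background on 3 control arrays and 1 mutant array, at an adjusted p of 0.379, and 1454313_at on none. No direction was assigned to Egfr, since none of its probe sets passed.

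Nrg1, which encodes the ligand of ErbB3 and ErbB4, was measured poorly. Its single probe set had signals of 233, 125, 197 and 174 across controls 1 to 4, and 113, 132, 152 and 47.6 across mutants 1 to 4. On controls 2 and 3 it lay under the background limit, at 0.40 and 0.73 times, while all 4 mutant arrays were above it. The log2 change was -0.38 (SE 0.43, 95% interval -1.28 to 0.53, adjusted p = 0.736). That interval spans folds, mutant over control, from 0.41 to 1.44, so it holds both a fall like that of Erbb3 and a modest rise. The change was -1.01 without quantile normalisation, -0.73 without controls 2 and 3, 0.10 without array weights and 0.50 without control 1, none past the threshold.

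Hbegf, whose product is a ligand of the EGF receptor and of ErbB4, had 2 probe sets above background on all 8 arrays. The brighter, 1418349_at, had signals of 511, 509, 308 and 582 across controls 1 to 4, and 588, 311, 644 and 472 across mutants 1 to 4. Each group held 1 low pool, control 3 and mutant 2, and the groups overlapped. The fitted log2 change, 0.26 (SE 0.26, adjusted p = 0.688), became -0.087 without controls 2 and 3. It was 1.02 without control 1 (adjusted p = 0.0701) and 0.89 without control 4 (adjusted p = 0.0934), so its size rests on single control arrays. The other probe set, 1418350_at, changed by -0.026 (SE 0.27, adjusted p = 0.978), with its highest signal, 557, on control 3, where the first was lowest.

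Errfi1 was the most tightly measured member. Its bright probe set, 1416129_at, had signals of 3416, 2931, 2905 and 3430 across controls 1 to 4, and 3676, 3981, 3595 and 3316 across mutants 1 to 4. The log2 values were 11.72 ± 0.04 and 11.75 ± 0.09 (SD, n = 4 each). The change was 0.011 (SE 0.080, 95% interval -0.16 to 0.18, adjusted p = 0.967), which bounds the fold, mutant over control, between 0.90 and 1.13. Its other probe set, of a kind that can bind related transcripts, was above background on no control array and 2 mutant arrays.

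Genes around the receptors were taken from lists of ErbB pathway members, on the brightest tested probe set of each gene. None of the 71 tested genes of the 6 lists was called in either direction, beside 0.0249% lower and 0.0414% higher of 12069 tested genes. At an unadjusted p under 0.05, 5 of the 71 were lower and 4 higher, beside 5.61% and 7.31% of all tested genes, which is close to the background. The median change of all tested genes was 0.02.

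Other ErbB ligands were mostly dim. Of 9 genes, 8 had a probe set and 4 were tested, 3 of them with negative changes, and 0 were above background on all 8 arrays. Tgfa changed by -0.0065 (SE 0.45) and Nrg4 by -0.81 (SE 0.50). Btc had the smallest unadjusted p of the tested ligands, 0.0300, but was above background on only 1 mutant array, as was Egf.

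The sheddases, which cut ErbB ligands free from the cell surface, were well measured, with all 8 tested genes above background on every array. Of 8 tested genes, the change was negative in 4 and positive in 4 (median 0.0027). Adam19, which can process neuregulins, changed by -0.32 (SE 0.13, adjusted p = 0.338) on its brightest probe set and by -0.43 (SE 0.16) on the other. Adam10 had no overlap between groups but a small change of -0.094 (SE 0.050), and its other probe sets changed by -0.32, 0.12 and 0.21. The iRhom Rhbdf1, a partner of Adam17, changed by -0.32 (SE 0.23), and Adam17 itself by 0.023 (SE 0.10).

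Genes that control receptor turnover showed 10 negative and 4 positive changes among 14 tested (median -0.047), none called. The scaffold Erbin, which binds ErbB2, changed by -0.30 (SE 0.12, adjusted p = 0.338) on its brightest probe set and by 0.24, -0.014 and 0.48 on the others. The ubiquitin ligases Nedd4 and Cbl changed by -0.089 (SE 0.051) and -0.13 (SE 0.084).

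Among the adaptors and kinases next to the receptors, 12 of 20 tested genes had negative changes, with a median of -0.030. The phosphatase Ptpn11, also called Shp2, changed by -0.14 (SE 0.063, adjusted p = 0.382), the exchange factor Sos1 by -0.19 (SE 0.099) and the kinase Pdpk1 by -0.22 (SE 0.12). Their other probe sets above background on at least 2 arrays of each group changed by -0.43 and -0.030 for Ptpn11. Those of Sos1 went the other way, at 0.90 and 0.45, as did that of Pdpk1, at 0.21. In the chain from Ras to ERK, 5 of 9 tested genes had positive changes (median 0.033), among them Nras at 0.13 (SE 0.090) and Map2k1 at 0.096 (SE 0.11), with Braf at -0.089 (SE 0.096). Other probe sets of Nras changed by 0.037 and -0.21. Those of Braf above background on at least 2 arrays of each group ran from -1.21 to 0.28. Ksr1, a scaffold of this chain, was above background on 1 control and 3 mutant arrays, at an adjusted p beyond the threshold.

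Of the transcripts that ERK signalling is known to induce, a few separated the groups as higher in the mutants, and none passed. Among 16 tested genes the change was positive in 11 and negative in 5 (median 0.086). All mutant arrays lay above all control arrays for 4 of 16, namely Fos, Ier3, Etv5 and Dusp5, beside 4.97% of all tested genes. Without controls 2 and 3 it was again 4 of 16, beside 9.24% of all. Fos, an immediate early gene, read on the log2 scale 9.17, 9.48, 7.97 and 8.90 across controls 1 to 4 and 9.89, 9.87, 9.89 and 9.80 across mutants 1 to 4. The mutant pools were close to each other and the controls scattered below them, control 3 farthest.

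Fos changed by 0.89 (SE 0.19, adjusted p = 0.116) and Ier3, another immediate early gene, by 0.68 (SE 0.15, adjusted p = 0.141). The ETS factor Etv5 changed by 0.27 (SE 0.091, adjusted p = 0.284) and the phosphatase Dusp5, which acts on ERK, by 0.38 (SE 0.13, adjusted p = 0.298). Without controls 2 and 3 these were 0.91, 0.69, 0.30 and 0.22. The cyclin Ccnd1 went the other way on its brightest probe set, at -0.28 (SE 0.096, adjusted p = 0.284), with -0.070 and 0.54 on the others. None of these passed over all probe sets. The feedback genes Dusp6 (0.13, SE 0.13) and Spry2 (-0.099, SE 0.068) had smaller changes. Dusp4 (0.28, SE 0.18) and Spred2 (0.30, SE 0.19) had changes about as large as that of Etv5, but their groups overlapped. Other probe sets of Spred2 changed by -0.52, 0.42 and 0.71, and those of Etv5 by 0.037 and 0.54. The target Egr2 changed by -0.52 (SE 0.37).

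**Figure D4:**
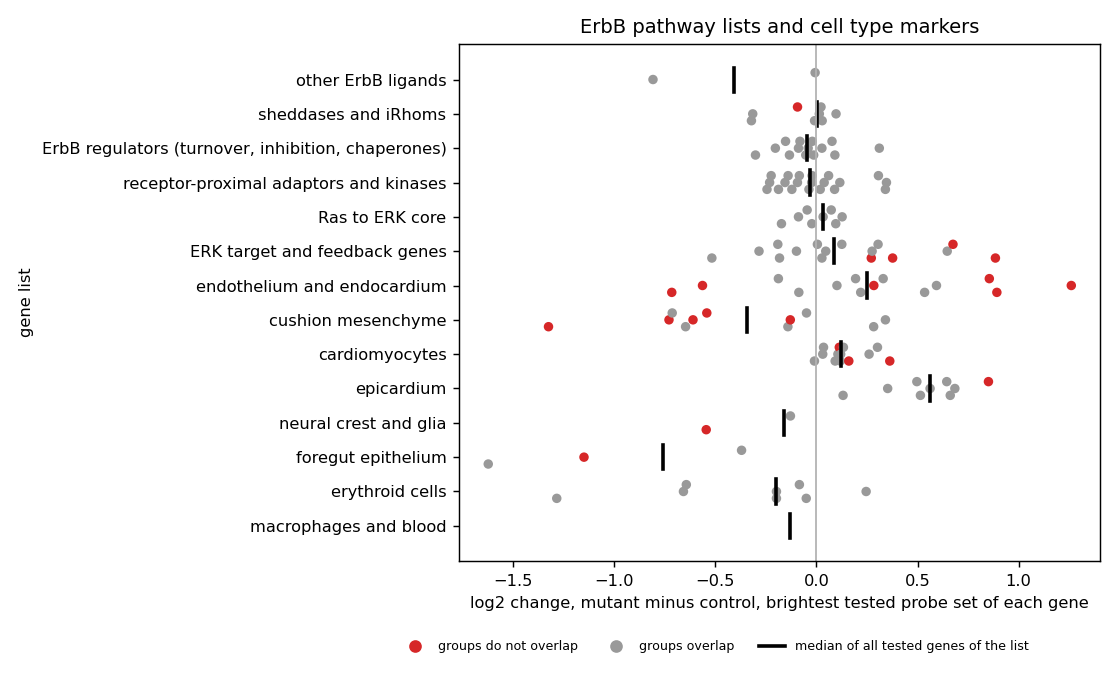
Log2 change, mutant minus control, of the brightest tested probe set of each gene (points) in the 6 ErbB pathway lists and 8 lists of cell type markers, with the median of all tested genes of a list as a black bar. Red points have no overlap between the 4 control and 4 mutant arrays, and genes detected on under 2 arrays in a group are not drawn. The pathway lists centre near 0 apart from the sparse ligand list, cushion mesenchyme markers centre at -0.34 and epicardial markers at 0.56.

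Cushion mesenchyme markers lay lower beside Erbb3 in the mutants, and in a pool fewer cells of a type and less RNA per cell cannot be told apart. Of 12 cushion mesenchyme markers, all tested and 11 above background on all arrays, 9 had negative changes, with a median of -0.34. For 5 of them, Sox9, Foxc2, Pdgfra, Twist1 and Vcan, all mutant arrays lay below all controls, beside 3.19% of all tested genes, though 0 passed. Without controls 2 and 3 it was 6 of 12, beside 8.03% of all. The summed signal of the 12 was 41470 to 48271 in the controls and 36988 to 43094 in the mutants. Tbx20 and Vcan weigh most in this sum, with mean signals of 14003 and 11814 in the controls and 14751 and 12168 in the mutants. The sum therefore says little about the dimmer markers. Endothelial markers had 10 positive and 4 negative changes among 14, with a median of 0.25, and only Tek passed, as lower. Tek is another name for Tie2, the gene whose promoter drives the Cre transgene of the mutants. All mutant arrays lay above all controls for 4 of these 14, beside 4.97% of all tested genes, and below for 2, beside 3.19%. Without controls 2 and 3 it was 6 above, beside 9.24% of all, and 3 below, beside 8.03%.

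Erbb3 was also read relative to these markers, references chosen after seeing the data. The mesenchyme mean holds 1 dim marker, Meox1, above background on 1 control array. The Erbb3 log2 value minus the mean of the 12 mesenchyme markers was 0.34, 0.64, 0.58 and 0.15 across controls 1 to 4 and -0.33, -0.43, -0.47 and -0.68 across mutants 1 to 4. The groups did not overlap, with a difference of -0.91 (exact permutation p = 0.0286). Single markers differed in size, none past the threshold. Twist1 at -1.33 (SE 0.43, adjusted p = 0.334) had a larger decrease than Erbb3 at -1.12. Pdgfra stood at -0.73 (SE 0.13, adjusted p = 0.0654), Msx1 at -0.71 (SE 0.29, adjusted p = 0.352) and Vcan at -0.13 (SE 0.053). The mean also holds Tbx20 at -0.049 and Prrx2 at 0.34, which bring its decrease closer to none. Prrx1 stood at 0.28 on its brightest probe set, but at -0.71 and -0.58 on the others. Whether fewer mesenchyme cells account for the Erbb3 decrease was not tested. Relative to the endothelial markers the difference was -1.52 (exact permutation p = 0.0286). Erbb3 alone had already reached this p, so these differences were not separate tests of its decrease.

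**Figure D5:**
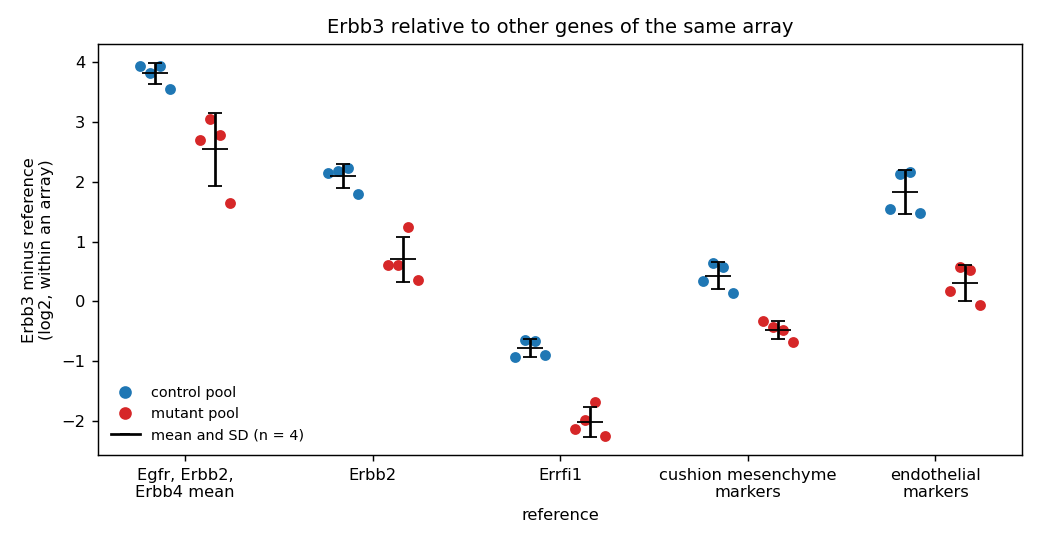
Log2 value of Erbb3 minus that of 5 references on the same array, for control (blue) and mutant (red) pools, with mean and SD (n = 4). None of these 5 references brings the groups to overlap, and the mean difference runs from -1.52 against endothelial markers to -0.91 against mesenchyme markers. Single mesenchyme markers were not taken as references, and Twist1 had a larger log2 decrease than Erbb3 (-1.33 against -1.12).

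Other cells known to carry ErbB3, glia of the neural crest and epithelia, were checked by their markers. Of 7 neural crest and glial markers with a probe set, 1, Ednrb, was above background on all 8 arrays. The defining glial factor Sox10 was above background on 0 control and 2 mutant arrays, and Foxd3 on none. Summed signals of the list were 3817 to 4694 in the controls and 2370 to 3752 in the mutants, most of it Ednrb, which changed by -0.55 (SE 0.14, adjusted p = 0.219). Of 10 foregut epithelial markers, 0 were above background on all arrays, with Epcam on 1 control and 1 mutant array. Their sum was 758 to 2378 in the controls and 243 to 957 in the mutants. This sum takes in signals below the background limit, which was far higher for controls 2 and 3 than for any mutant. It therefore cannot tell whether the groups differed in epithelium. The part of either list in the Erbb3 decrease was not tested.

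Markers of the muscle and surface layers of the canal were mostly positive in sign. Of 14 cardiomyocyte markers 13 had positive changes (median 0.12), and all 9 tested epicardial markers did (median 0.56), while 0 passed in either list on the brightest probe set. A dimmer probe set of Ryr2, the calcium release channel of heart muscle, was called higher (0.67, SE 0.11, adjusted p = 0.0269). All mutant arrays lay above all controls for 3 of the 14 cardiomyocyte markers and 1 of the 9 epicardial markers, beside 4.97% of all. Without controls 2 and 3 it was 8 and 3, beside 9.24% of all. Erythroid markers had 7 of 8 negative changes (median -0.20), and of 7 macrophage and blood markers 1 was tested and 0 were above background on all arrays. Their part in the Erbb3 decrease was not tested.

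The genes whose profile over the 8 arrays lay closest to that of Erbb3 were found by the root mean square difference between mean-centred log2 values. They were Igf1 (0.14), Col9a1 (0.16), Prss35 (0.21), Col3a1 (0.21), Jak1 (0.22) and Hapln1 (0.22), where the median over all tested probe sets was 0.74. All 6 were lower in each mutant pool than in each control pool, which closeness to Erbb3 favours. Their changes ran from -1.15 (Col9a1) to -0.71 (Col3a1), and of the 6 only Hapln1 passed the test (-0.90, adjusted p = 0.0067). Igf1, a growth factor, read on the log2 scale 10.40, 10.65, 10.99 and 10.36 across controls 1 to 4 and 9.37, 9.30, 9.79 and 9.07 across mutants 1 to 4. Mutant 4 was lowest and mutant 3 highest in both genes.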

How the data were processed

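RNA from pools of 10 atrioventricular canals (50 ng each, isothermal NuGen amplification) was hybridised to 8 Affymetrix arrays, per the labels. The authors deposited 1 intensity per probe set and array, on a linear scale. MAS5 is the tool named for them, per the submitters' processing notes, with its version and settings not stated there. Gene symbols came from the platform annotation. The members and the gene lists were chosen with earlier results of these data known.

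Intensities were taken as log2(signal + 16), so changes of dim genes are understated. Arrays were quantile normalised because their 2% trimmed means differed by 1.12 times, over a limit of 1.1. The 64 array controls and the dimmest 40% of 45101 probe sets were left out, which left 27022. Mutant and control were compared with limma 3.58.1 in R 4.3.3 (array weights, trended and robust eBayes, two-sided, Benjamini-Hochberg over all tested probe sets, threshold 0.05). Group means and SDs are unweighted. The fit was tested on simulated arrays. Single within-array differences were compared by exact two-sided permutation of the arrays. The number of arrays limits the precision.

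All 7 members were reported on every probe set, with up to 3 genes of smallest p from each pathway list and the 6 profiles nearest to Erbb3. Ccnd1, Dusp4, Dusp5, Dusp6, Egr2, Spred2, Spry2, Adam17, Map2k1, Tgfa and the markers named, Ryr2 included, were chosen after their values were seen. Sizes of change are left out where fewer than 2 arrays in a group were above background. References for Erbb3 other than the mean of the 3 receptors were added after seeing the data. Alternatives covered normalisation, pseudocount, filter, array weights, arrays left out, a replicate block and RNA integrity.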

Additional observations from a re-analysis of the deposited data

Results flagged for a closer look

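Erbb4 on control 4 stood apart from the other 3 controls, with a log2 value of 5.08 against 4.40 to 4.44. The gap to the nearest control was 0.94 of the range of the group. The probe set was under the background limit on that array, as on every other. In all, 32 groups of 4 values were screened this way, of which chance alone sets about 5% apart.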

How the results depend on the processing

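The Erbb3 decrease kept its sign in 18 of 19 alternative fits and passed in 14. The exception in sign was centring arrays on their medians (0.13, with a median change of all probe sets of 1.13); the threshold was missed when controls 2 and 3 were dropped, unweighted (-1.12) or weighted (-1.12), with the RNA integrity covariate (-1.09), and without mutant 1 (-1.09, adjusted p = 0.0551). With 1 array left out at a time it ran from -1.28 to -0.96. Member probe sets called lower numbered 1 as reported, 0 in those 3 fits, and 0 to 2 with 1 array left out, the second being the dim Egfr probe set 1451530_at without control 4. With median centring 3 members were called higher, namely Errfi1, Hbegf and Erbb2, and the 1 called lower was Egfr 1457563_at rather than Erbb3; relative to the median the changes of those 3 were 0.52, 0.62 and 0.06.

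Calls over all probe sets, 5 lower and 7 higher, depended on the setting. They were 22 and 41 without quantile normalisation, 1833 and 17318 with median centring, 12 and 22 with a pseudocount of 64, and 12 and 14 with no filter. They were 1 and 1 without controls 2 and 3 in either fit, and 2 and 2 with the RNA integrity covariate. Without array weights 10 were lower. With 1 array left out, 2 to 371 were lower and 3 to 1417 higher, namely 263 and 1417 when control 1 was dropped and 371 and 1291 when control 4 was. Erbb3 minus the mean of 3 receptors was -0.83 without quantile normalisation and with median centring, -1.35 with a pseudocount of 1, and -1.32 without controls 2 and 3, where 2 against 4 cannot go below an exact permutation p of 0.0667; none of these passed. With 1 array left out it ran from -1.41 to -0.97. With Erbb2 or Errfi1 alone as reference and no quantile normalisation it was -1.10 and -1.35, both at the smallest exact permutation p, 0.0286.

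Of the members that were not called, Erbb2 kept its sign in all 19 alternative fits, and Egfr, Nrg1, Hbegf and Errfi1 did not. Egfr was -0.22 without array weights and -0.22 to 0.43 with 1 array left out. Nrg1 was 0.44 with median centring, which is -0.69 relative to the median and so no change of direction against it, -1.01 without quantile normalisation, 0.10 without array weights and -0.67 to 0.50 with 1 array left out. Hbegf was -0.087 and -0.027 without controls 2 and 3, -0.12 with the covariate, and 0.044 to 1.02 with 1 array left out. Errfi1 ran from -0.015 to 0.055 with 1 array left out. The cause of these shifts was not tested.

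Control and mutant arrays share replicate numbers, but same-numbered arrays did not deviate together, with correlations of -0.11, 0.01, -0.13 and 0.17, so the numbers were not taken as pairs. With the replicate block, Erbb3 changed by -1.22 (limma adjusted p = 0.000604), and 34 probe sets were lower and 26 higher.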
